A study of Mus musculus with 12 samples.

Results

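Immediate early genes were examined in bulk RNA-seq libraries of whole mouse heart as a set of 34 gene symbols, chosen by name. All 34 were among the 24061 symbols listed in every library, and 33 passed the filter on low counts. The 12 hearts were from C57BL/6J males on chow, whose age the labels place between 2 and 4 months. Of these, 6 were HKII+/- (heterozygous for hexokinase II) and 6 were HKII+/+ (wild type), and the design asks how the heart transcriptome differs between the genotypes. The labels give no further allele, treatment, batch or time of tissue collection, and how the hearts were handled before RNA isolation is not given in the sources used here. Hexokinase II, the product of Hk2, adds phosphate to glucose at the start of glycolysis.

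Immediate early genes are transcribed within minutes of a stimulus, from factors that are already in the cell, without new protein synthesis. Kinase cascades reach serum response factor, its ternary complex partners and CREB at their promoters, and the mRNAs are short-lived. Their products include transcription factors that switch on later genes and feedback proteins that shut the signal down. In heart they are known to respond to stretch, adrenergic stimulation, ischaemia and the handling of tissue.

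Counts summed to between 17263209 and 51556592 per library. The submitters marked 2 libraries as potential outliers, HKII+/- replicate 11 and HKII+/+ replicate 13, and these stood apart in composition, with scaling factors of 0.787 and 0.76 against 0.992 to 1.09 in the other 10. Levels are CPM, read counts scaled to a common library size with TMM factors. Hk2, the gene the genotype targets, measured 256 to 354 CPM in the 5 unmarked HKII+/- libraries and 471 to 542 CPM in the 5 unmarked HKII+/+ libraries. The library labelled HKII+/- replicate 11 held 568 CPM of Hk2 and HKII+/+ replicate 13 held 653 CPM, both above every unmarked library. The level in replicate 11 is thus unlike that of the other libraries with its label. Whether the label or the unlike composition of the marked libraries lies behind this was not tested. The 8 heart muscle markers summed to 69100 to 94600 CPM in unmarked HKII+/- and 74200 to 82700 CPM in unmarked HKII+/+ libraries. They reached 181000 CPM in the library labelled HKII+/- replicate 11 and 204000 CPM in HKII+/+ replicate 13. In the library labelled HKII+/- replicate 11, 5 airway epithelium markers summed to 241 CPM, against 0.313 to 1.68 CPM in unmarked HKII+/- libraries, and 5 fat markers to 769 CPM, against 27.9 to 134 CPM. Its 6 fibroblast markers summed to 6330 CPM, against 749 to 1100 CPM, and those of HKII+/+ replicate 13 to 2180 CPM, against 880 to 1180 CPM in unmarked HKII+/+ libraries. The 5 atrial markers summed to 433 CPM in HKII+/- replicate 22 and 316 CPM in HKII+/- replicate 19, against 2360 to 6840 CPM in the other 8 unmarked libraries. The part of these markers in the results below was not tested. The marked libraries are treated apart.

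Promoters are shown because members varied together from library to library. The 4 sequences shown are those of Fos and of the 3 members whose levels followed it most closely. Each is the RefSeq window of 300 bases on GRCm38, 250 before and 50 after the annotated start, written 5′ to 3′ on the gene's own strand. Capitals mark matches, on either strand, to the cyclic AMP response element TGACGTCA, its shorter form TGACG, the TATA box TATAAA, the AP-1 site TGANTCA, the EGR site GCGNGGGCG or the CArG box to which serum response factor binds. The windows lie at chr12:85473640-85473939 (plus strand) for Fos, chr10:67535249-67535548 (plus) for Egr2, chr1:134079106-134079405 (minus) for Btg2 and chr17:26508423-26508722 (minus) for Dusp1.
Fos: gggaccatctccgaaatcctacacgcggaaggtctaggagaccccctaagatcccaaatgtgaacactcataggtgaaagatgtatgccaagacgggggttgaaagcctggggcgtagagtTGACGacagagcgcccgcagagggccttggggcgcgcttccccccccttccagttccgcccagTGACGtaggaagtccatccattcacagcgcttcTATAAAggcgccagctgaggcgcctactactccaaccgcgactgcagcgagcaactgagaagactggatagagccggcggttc
Egr2: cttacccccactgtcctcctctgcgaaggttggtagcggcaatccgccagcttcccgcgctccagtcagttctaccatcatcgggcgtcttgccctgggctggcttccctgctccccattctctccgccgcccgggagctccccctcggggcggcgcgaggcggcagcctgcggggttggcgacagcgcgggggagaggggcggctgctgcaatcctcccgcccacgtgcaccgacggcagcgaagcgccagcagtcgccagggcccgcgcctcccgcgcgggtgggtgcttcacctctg
Btg2: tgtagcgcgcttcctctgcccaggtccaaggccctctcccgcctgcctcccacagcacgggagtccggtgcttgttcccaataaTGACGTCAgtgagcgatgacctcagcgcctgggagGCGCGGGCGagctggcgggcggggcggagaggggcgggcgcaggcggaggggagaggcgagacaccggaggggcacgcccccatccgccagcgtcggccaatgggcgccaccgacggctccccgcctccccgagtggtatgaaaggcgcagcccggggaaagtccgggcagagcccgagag
Dusp1: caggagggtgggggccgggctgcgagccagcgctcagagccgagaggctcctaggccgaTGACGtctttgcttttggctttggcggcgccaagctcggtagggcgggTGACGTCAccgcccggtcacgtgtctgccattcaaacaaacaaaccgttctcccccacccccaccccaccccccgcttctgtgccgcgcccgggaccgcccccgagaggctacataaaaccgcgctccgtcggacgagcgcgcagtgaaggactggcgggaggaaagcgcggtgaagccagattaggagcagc

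The Fos window held the shorter form from 129 and again from 66 bases upstream of the start, and the TATA box from 33 bases upstream. The Btg2 window held the full element from 166 bases upstream and an EGR site from 131 bases upstream. In the Dusp1 window the full element began 143 bases upstream, with a separate shorter form from 191 bases upstream. In the Egr2 window, the one of its 5 RefSeq windows nearest the GENCODE gene start, none of the 6 motifs was present. Of the members, 28 had a window, Cyr61 under its newer symbol Ccn1, and Egr1, Egr3, Fosl1, Arc, Ier2 and Myc did not. The shorter form, which every full element also contains, was present in 15 of these 28 (53.6%), against 20.8% of all 32851 windows. The full element was present in 3 (10.7% against 1.79%), the EGR site in 10 (35.7% against 5.55%) and the TATA box in 8 (28.6% against 13.6%). The CArG box was found in 1, Zfp36 (3.57% against 1.63%), and the AP-1 site in 0 of 28 (7.81% of all windows). These shares count 1 window per member but every RefSeq window of every gene, and the windows were not matched for GC content. A match describes letters in this window and does not show that a factor binds there. Bases outside the window were not searched, so a motif absent here may lie farther from the start.

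Most of the set varied widely between animals of the same genotype. Over the 10 unmarked libraries the within-genotype standard deviation of log2 CPM had a median of 0.386 over the 33 tested members and 0.144 over all 14139 genes tested. It lay above the median of all genes for 32 members, Jund being the exception, and in the top 10% of all genes for 13. Fos varied most, with a standard deviation of 1.28, at the 99.1 percentile of all genes, of which counting alone would give 0.100. Nr4a1 (1.15), Fosb (0.991) and Egr1 (0.982) came next. Jund had 0.101, at the 27.5 percentile. In bulk tissue, more RNA per cell and more cells that hold it cannot be told apart.

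The AP-1 members encode the Fos and Jun proteins, which pair to form the AP-1 transcription factor, and the related Atf3 and Maff. Values of unmarked libraries are given below in the order of HKII+/- replicates 12, 16, 19, 20 and 22 and HKII+/+ replicates 14, 15, 17, 18 and 21. Fos measured 27.4, 25.8, 18.7, 26.7 and 7.02 CPM in HKII+/- and 4.68, 41.3, 13.3, 2.15 and 10.4 CPM in HKII+/+ libraries. The genotypes overlapped, since both the highest and the lowest library were HKII+/+, 19.2-fold apart. Fosb, a close relative of Fos, measured 6.23, 4.94, 1.31, 5.09 and 1.49 CPM in HKII+/- and 0.982, 4.95, 3.17, 1.43 and 2.05 CPM in HKII+/+ libraries. Among HKII+/- libraries it was lowest in replicate 19, where Fos was not low, and next in replicate 22, where Fos was, and again the groups overlapped.

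Atf3, a factor of stress responses, measured 38.1, 21.3, 8.28, 26.3 and 15.8 CPM in HKII+/- and 7.01, 20.8, 14.3, 6.56 and 17.1 CPM in HKII+/+ libraries. HKII+/- replicate 12 stood highest and the rest of the groups overlapped. Jun, the main partner of Fos, measured 118, 108, 78.5, 113 and 95.8 CPM in HKII+/- and 61.6, 93.3, 90.9, 78.3 and 101 CPM in HKII+/+ libraries. The highest 3 values were HKII+/- and the lowest 2 HKII+/+. Junb, which restrains some Jun targets, measured 28.3, 35.5, 36.3, 30.8 and 25.2 CPM in HKII+/- and 24, 59.7, 33.3, 19.6 and 27.5 CPM in HKII+/+ libraries, with HKII+/+ replicate 15 far above the rest. Jund (chr8:70698949-70700616 on GRCm38, plus strand, 1 exon), the Jun protein that is present in resting cells, measured 173, 157, 146, 165 and 149 CPM in HKII+/- and 153, 127, 137, 139 and 134 CPM in HKII+/+ libraries. Only HKII+/+ replicate 14 reached into the HKII+/- range. Fosl2 lay between 39.6 and 91.4 CPM and Maff between 8.51 and 15.9 CPM over the 10 libraries. Fosl1 did not pass the filter, with 27 counts in all 12 libraries together and 0 to 5 in each.

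**Figure D1:**
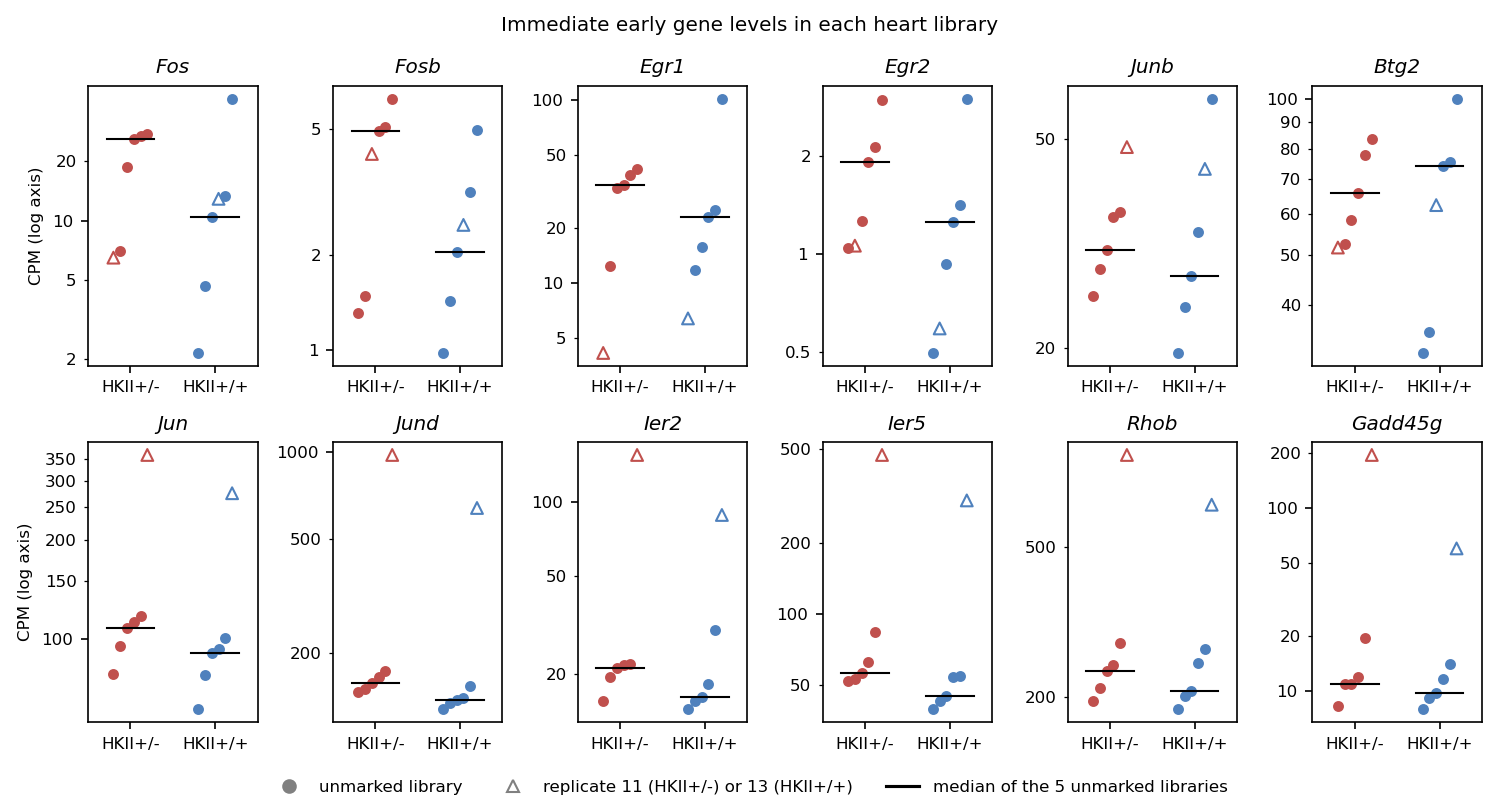
CPM on a log axis of 12 members in each library, with HKII+/- left of HKII+/+, filled circles for unmarked libraries, open triangles for the marked replicates 11 and 13, and a bar for the median of the 5 unmarked libraries. In the upper row the unmarked libraries spread widely and overlap between the genotypes, Fos from 2.15 to 41.3 CPM, while in the lower row they lie close together and both triangles stand far above them, Jund at 980 and 640 CPM.

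The Egr zinc finger factors varied as Fos did. Egr1 measured 38.7, 41.6, 34.4, 33 and 12.4 CPM in HKII+/- and 25.1, 101, 23, 11.8 and 15.8 CPM in HKII+/+ libraries. HKII+/- replicate 22 was low and HKII+/+ replicate 15 was more than 2-fold above every other library. Egr2 was scarce, between 0.496 and 3 CPM, and so was Egr3, between 1.94 and 7.22 CPM, both highest in HKII+/+ replicate 15. Nr4a1, an orphan nuclear receptor, measured 57.9, 141, 89.7, 148 and 156 CPM in HKII+/- and 15.2, 143, 133, 26.9 and 114 CPM in HKII+/+ libraries. It was low in HKII+/+ replicates 14 and 18 but highest in HKII+/- replicate 22, where Fos, Egr1 and the atrial markers were low. In HKII+/- replicate 19 the atrial markers were low too, with Egr1 at 34.4 CPM and Nr4a1 at 89.7 CPM. The related Nr4a2 and Nr4a3 spanned 1.6 to 8.56 and 5.48 to 19.7 CPM.

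The Krüppel-like factors Klf2 and Klf4, known in endothelium for their response to blood flow, were steadier. Klf2 measured 73.8, 86.4, 62.3, 82.2 and 101 CPM in HKII+/- and 41.8, 63.3, 83.3, 50.1 and 91.4 CPM in HKII+/+ libraries, and the groups overlapped. Klf4 measured 85.5, 65.8, 74.3, 71.6 and 87.1 CPM in HKII+/- and 51.9, 58, 64.6, 65.4 and 78.1 CPM in HKII+/+ libraries. HKII+/+ replicate 21 alone among the wild types lay above the lowest HKII+/- library. The 7 endothelial markers summed to 1310 to 1530 CPM in HKII+/- and 1260 to 1480 CPM in HKII+/+, and their part in the Klf values was not tested. Klf6 lay between 66.4 and 101 CPM, and Csrnp1, a nuclear factor, between 20.1 and 42.7 CPM. Myc, the growth factor-induced regulator of transcription, measured 4.19, 3.06, 4.6, 3.21 and 2.78 CPM in HKII+/- and 3.96, 5.64, 2.36, 2.98 and 4.65 CPM in HKII+/+ libraries, so both the highest and the lowest library were HKII+/+.

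The feedback members are a list of feedback and RNA decay genes, of which some, such as Dusp1 and Zfp36, limit the response. Dusp1, a phosphatase that switches off MAP kinases, measured 120, 113, 126, 120 and 108 CPM in HKII+/- and 80.3, 160, 89.6, 82.9 and 109 CPM in HKII+/+ libraries. The HKII+/- values lay close together and inside the wider HKII+/+ range, which replicate 15 topped. Zfp36, which binds AU-rich mRNAs and speeds their decay, measured 37.5, 46.5, 42.4, 50.7 and 56.7 CPM in HKII+/- and 26.4, 57.9, 50.3, 33.2 and 53.2 CPM in HKII+/+ libraries, and the groups overlapped. Ier2 measured 21.9, 21.7, 21.1, 19.4 and 15.5 CPM in HKII+/- and 18.2, 30.2, 15.6, 16.1 and 14.4 CPM in HKII+/+ libraries. Only HKII+/+ replicate 15 exceeded the HKII+/- values. Ier5 measured 83.7, 51.8, 53.1, 62.7 and 56.3 CPM in HKII+/- and 42.7, 44.8, 39.5, 54.7 and 53.9 CPM in HKII+/+ libraries, so the HKII+/+ replicates 18 and 21 overlapped with HKII+/-. The antiproliferative genes Btg1 and Btg2 lay between 16.5 and 24.8 CPM and between 32.4 and 100 CPM. Socs3, an inhibitor of cytokine signalling, lay between 5.47 and 11.1 CPM, Ier3 between 16.1 and 28.5 CPM and Ppp1r15a, which directs a phosphatase to the translation factor eIF2 alpha, between 29 and 47.3 CPM.

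Among the effectors, Cyr61, a secreted matrix protein, measured 86.5, 78.8, 65.3, 67 and 53.8 CPM in HKII+/- and 67.5, 116, 61.8, 48.7 and 66.5 CPM in HKII+/+ libraries. Both the highest and the lowest library were HKII+/+. Gadd45b, a stress-induced activator of kinase signalling, measured 3.14, 6.51, 5.77, 5.89 and 5.59 CPM in HKII+/- and 5.69, 7.01, 6.75, 4.85 and 10 CPM in HKII+/+ libraries, lowest in HKII+/- replicate 12. Its relative Gadd45g lay between 7.97 and 19.6 CPM, the small GTPase Rhob between 186 and 279 CPM, and Arc, best known from neurons, between 2.8 and 4.89 CPM. Per kilobase of exon, Rhob (median 95 CPM per kb over the 10 libraries) and Jund (88.4 CPM per kb) stood highest, followed by Klf2 (42.2) and Nr4a1 (35.2). Dusp1 (33.6) and Cyr61 (33.1) were next. On this scale Fos was at 6.81 CPM per kb, and Fosb (0.418) and Egr2 (0.393) were the lowest members that passed the filter.

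A large part of the set followed Fos from library to library. Over the 10 unmarked libraries the Pearson correlation of log2 CPM with Fos had a median of 0.502 over the other 32 tested members, and 30 of them had r above 0, as did 50% of all genes tested. Over all 528 pairs of members the median r was 0.362, and 37.5% of pairs exceeded 0.5, against 11.2% of all pairs of tested genes (median -0.001). Libraries share their scaling and the points are 10 animals. Of the members, 0 passed an adjusted p of 0.05 by permutation over all 14138 genes compared with Fos, as did 0% of all genes, and 13 of 32 had a positive r with an unadjusted permutation p below 0.05, against 2.93% of all genes.

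By role, the median r with Fos was 0.636 over the other 7 tested AP-1 members, 0.547 over 9 feedback members, 0.421 over 11 zinc finger and nuclear receptor factors and 0.0535 over 5 effectors. The 4 members with the highest r were Egr2, Btg2, Dusp1 and Egr1. Egr2 had r = 0.947 (rho 0.964), with an unadjusted permutation p of 5e-05 for each and an adjusted p of 0.353 for r. Btg2 had r = 0.841 (rho 0.745), with permutation p = 0.0024 and 0.0174 and an adjusted p of 0.907. Dusp1 had r = 0.841 (rho 0.879), with permutation p = 0.00216 and 0.00161, and Egr1 had r = 0.833 (rho 0.867), with permutation p = 0.00276 and 0.0024, both at an adjusted p of 0.907. Junb (0.83), Cyr61 (0.798), Fosb (0.795), Atf3 (0.763) and Egr3 (0.752) followed by r. At the other end Gadd45b (0.0385), Rhob (-0.00258) and Ier3 (-0.149) showed little relation to Fos.

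HKII+/+ replicates 14 and 18, farthest from the median of Fos in log2 CPM, carried part of this pattern. Without them the median r with Fos was 0.326 and 20 of 32 members were above 0. Egr1 (0.95), Ier2 (0.897), Egr2 (0.882) and Cyr61 (0.848) still had high r over those 8 libraries, and Dusp1 had 0.685 and Btg2 0.553. Nr4a1 had 0.662 over 10 libraries and -0.21 without the pair, Zfp36 0.547 and -0.303, and Klf2 0.421 and -0.717. With 1 library left out at a time, the lowest r was 0.516 for Nr4a1, 0.408 for Zfp36 and 0.185 for Klf2. The pair held the lowest Fos levels, so leaving both out also narrows the range of Fos. With genotype means removed the median r was 0.504, and 26 of 32 members were above 0, against 30 without this step. With all 12 libraries the median r was 0.328, and Egr2 then had r = 0.844 (rho 0.888).

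By log2 CPM scaled over the 10 unmarked libraries, HKII+/+ replicate 15 held the highest level of 14 of the 33 members, including Fos, Egr1, Egr2, Junb and Dusp1. HKII+/- replicate 22 was highest for 7, among them Nr4a1, Klf2, Klf4 and Rhob, and HKII+/- replicate 12 for 6, among them Fosb, Atf3 and Jun. HKII+/+ replicate 14 was lowest for 18 members and HKII+/+ replicate 18 for 6. The libraries most often highest and most often lowest were both HKII+/+.

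**Figure D2:**
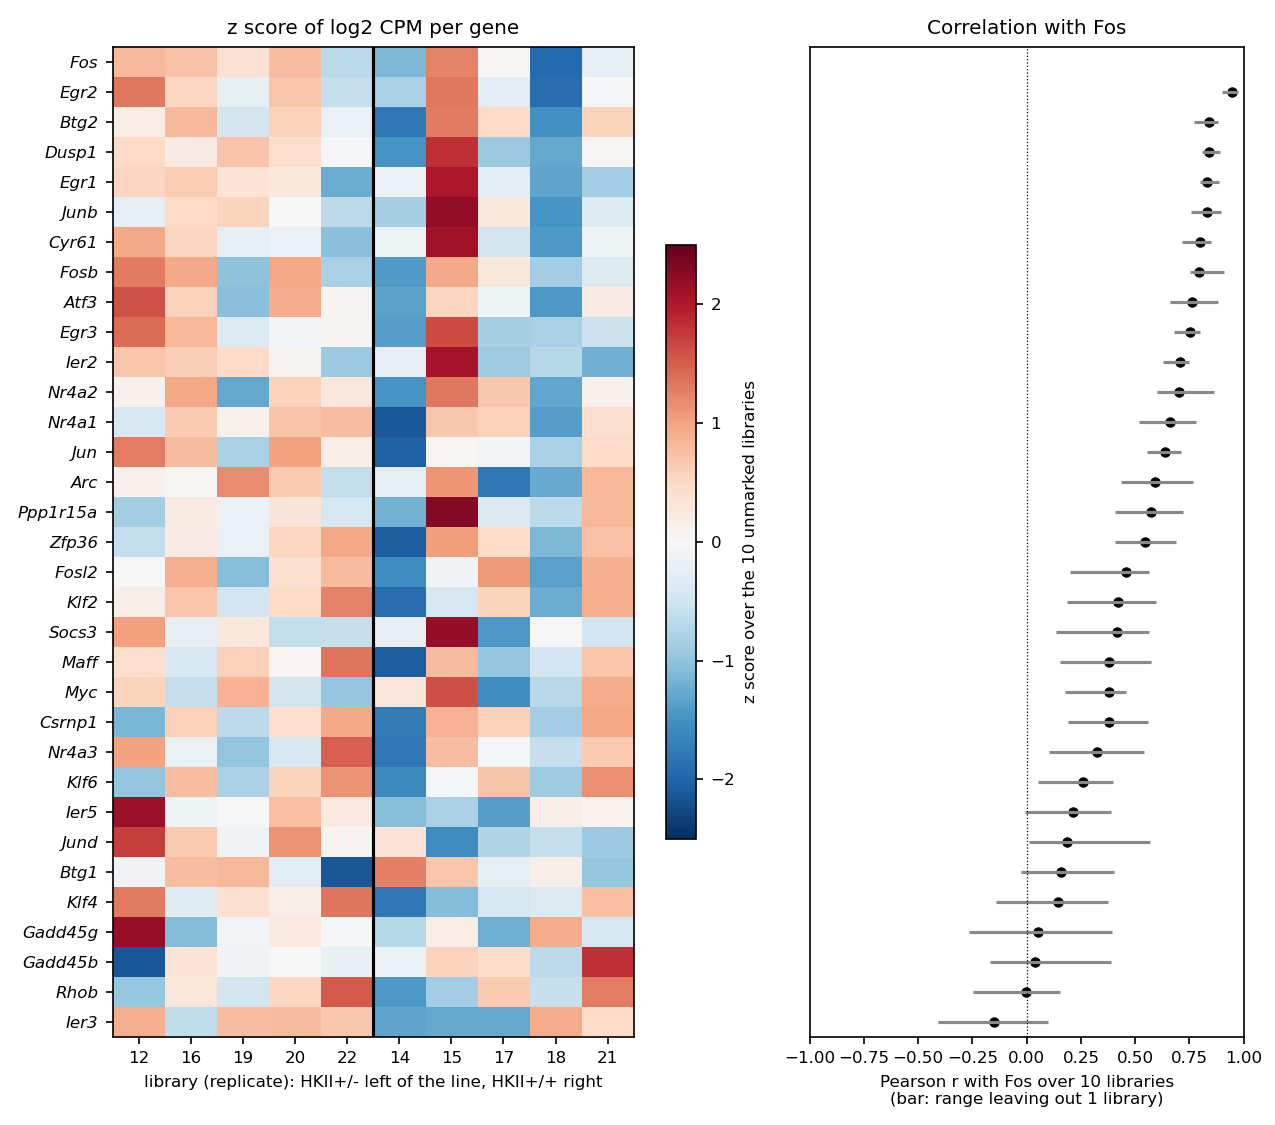
Left, z scores of log2 CPM of the 33 tested members (rows, ordered by r with Fos) in the 10 unmarked libraries, HKII+/- left of the line and HKII+/+ right of it; right, Pearson r of each member with Fos, with the range when 1 library is left out. The upper rows are red in HKII+/+ replicate 15 and blue in replicates 14 and 18, and r runs from 0.947 for Egr2 to -0.149 for Ier3.

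The non-members whose levels followed Fos most closely were Camkmt (r = 0.919), Rel (0.892), Mre11a (0.888), Atf7ip (0.886) and Wdfy2 (0.885), named by their r over the 10 libraries. Without HKII+/+ replicates 14 and 18 their r was 0.816, 0.74, 0.748, 0.711 and 0.849 in the same order. None passed the permutation test, with adjusted p of 0.471 for Camkmt and 0.907 for the others. With all 12 libraries Camkmt had 0.121 and Wdfy2 0.388, while Rel, an NF-kappa B subunit, had 0.824. The 48 tested genes of a second list of rapid response genes had a median r with Fos of 0.206, and 37 were above 0. The median was 0.139 over 12 heat shock genes and 0.0355 over 20 upstream kinases and factors. Among 12 cell type marker lists it ran from -0.469 over 8 cardiomyocyte and -0.332 over 7 endothelial genes to 0.303 over 6 mural and 0.334 over 2 airway genes. Whether cell makeup moved with Fos was not tested.

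Between the genotypes 0 of the 33 tested members passed in edgeR's quasi-likelihood test, with all 12 libraries or with the 10 unmarked, and every adjusted p was 1. The background was 0% of 14107 genes called with 12 libraries and 0.00707% of 14139 called with 10, which is Hk2 alone. With 12 libraries 26 members were higher in HKII+/- (78.8%), against 49.5% of all genes, and the median log2 fold change was 0.16 over members and -0.00127 over all genes. With the 10 unmarked libraries 25 were higher (75.8%), against 47.3% of all genes, with a median of 0.15 against -0.00462. By role, with 10 libraries, 7 of 8 tested AP-1 members were higher in HKII+/- (median 0.24), as were 9 of 11 zinc finger and nuclear receptor factors (0.24), 6 of 9 feedback members (0.08) and 3 of 5 effectors (0.07). With 12 libraries the counts were 7, 9, 7 and 3, with medians of 0.41, 0.10, 0.04 and 0.16. Because members follow one another across libraries, these counts do not stand for 33 separate observations.

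Single libraries moved these values. Among the 10, the median was 0.28 without HKII+/+ replicate 15 (31 of 33 higher), 0.05 without HKII+/+ replicate 18 (21 higher) and 0.07 without HKII+/+ replicate 14 (20 higher). With 12 it was 0.06 without the library labelled HKII+/- replicate 11 (20 higher) and 0.09 without HKII+/+ replicate 18 (22 higher).

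With the 10 unmarked libraries 3 members had an unadjusted p below 0.05, all higher in HKII+/-. That is 3 of 33, against 1.51% of all genes in that direction, and with 12 libraries it was 0 of 33, against 0.17%. Jund averaged 158 ± 11.1 CPM in HKII+/- and 138 ± 9.69 CPM in HKII+/+ (SD, n = 5 each), a log2 fold change of 0.20 (SE 0.06, edgeR unadjusted p = 0.0102, adjusted p = 1). Ier5 averaged 61.5 ± 13.1 CPM in HKII+/- and 47.1 ± 6.81 CPM in HKII+/+, at 0.39 (SE 0.14, edgeR unadjusted p = 0.0158, adjusted p = 1). Klf4 averaged 76.8 ± 9.15 CPM in HKII+/- and 63.6 ± 9.79 CPM in HKII+/+, at 0.28 (SE 0.11, edgeR unadjusted p = 0.0285, adjusted p = 1). With all 12 libraries the log2 fold changes were 0.41 for Jund, 0.54 for Ier5 and 0.21 for Klf4, with 95% intervals that included 0.

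The most variable members could not be resolved between genotypes at this number of animals. With 10 libraries the log2 fold change of Fos was 0.52 (95% interval -0.82 to 1.87) and that of Egr1 was -0.17 (-1.33 to 0.998). Without HKII+/+ replicate 15 these were 1.45 for Fos and 0.74 for Egr1, both at adjusted p = 1 in edgeR's quasi-likelihood test. Atf3 was at 0.74 (-0.13 to 1.61), Nr4a1 at 0.45 (-0.71 to 1.61) and Fosb at 0.58 (-0.52 to 1.67). The steadier members had narrower intervals. Klf6 was at 0.05 (-0.22 to 0.33), Rhob at 0.07 (-0.18 to 0.32), Ppp1r15a at -0.10 (-0.36 to 0.16) and Btg1 at -0.06 (-0.29 to 0.16). The lowest was Gadd45b at -0.36 (-0.83 to 0.11).

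**Figure D3:**
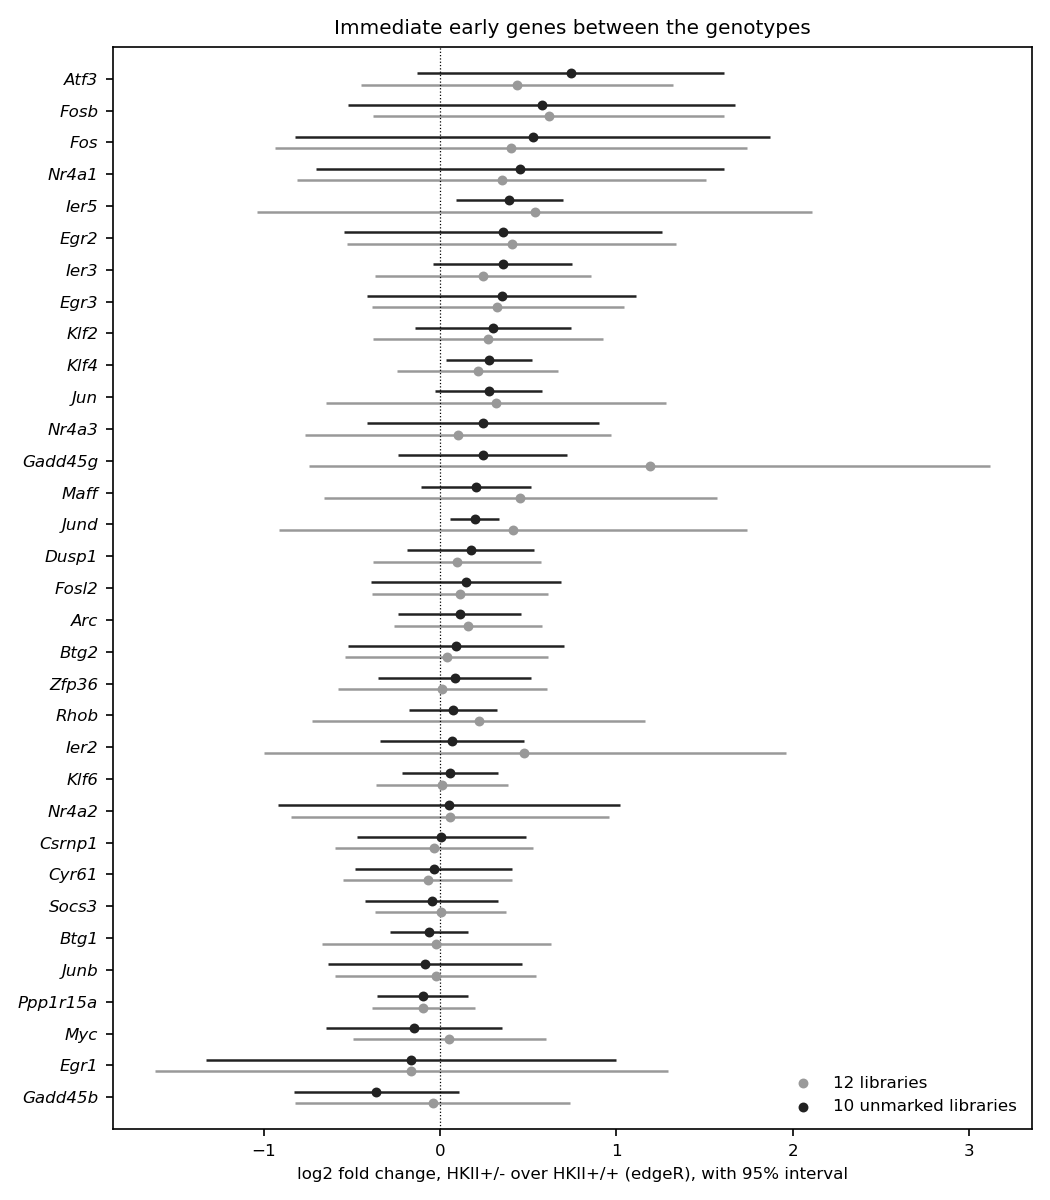
Log2 fold change of each tested member, HKII+/- over HKII+/+, with its 95% interval from edgeR, for all 12 libraries (grey) and for the 10 unmarked ones (black). Intervals exclude 0 for Jund, Ier5 and Klf4 with 10 libraries and for no member with 12, and those of Gadd45g, Ier5, Ier2 and Jund are several times wider with 12.

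In the marked libraries some members rose and others fell, as did genes at large. In both, 7 of the 33 tested members (21.2%) lay more than 1 log2 unit above the mean of the 5 unmarked libraries of the same labelled genotype, where 12.9% of all tested genes did, and 2 (6.06%) lay as far below (19.5% of all genes). Jund measured 980 CPM in the library labelled HKII+/- replicate 11, against 146 to 173 CPM in the unmarked HKII+/- libraries, and 640 CPM in HKII+/+ replicate 13, against 127 to 153 CPM in the unmarked HKII+/+ libraries. Ier5 measured 474 and 304 CPM in the same libraries and Rhob 878 and 648 CPM. Jun was at 360 and 276 CPM, Ier2 at 156 and 88.9 CPM, Maff at 65.1 and 38.2 CPM and Gadd45g at 196 and 60.4 CPM. For these 7 genes both marked libraries stood above all 10 others.

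Fos and the Egr genes were not among them, although Jun and Ier2, which also followed Fos over the 10 libraries, were. Fos measured 6.51 CPM in the library labelled HKII+/- replicate 11 and 12.9 CPM in HKII+/+ replicate 13, Egr1 4.17 and 6.43 CPM, and Egr2 1.06 and 0.59 CPM. Egr1 lay below every unmarked library in both, with shifts of -2.82 and -1.98 log2 units from the mean of its labelled genotype. Btg1, at 9.31 and 6.56 CPM, was the other member more than 1 log2 unit below in both. Nr4a1 (36.7 CPM), Nr4a3 (2.76 CPM), Klf4 (34.6 CPM), Zfp36 (18.7 CPM) and Ier3 (8.59 CPM) were among the members lower in the library labelled HKII+/- replicate 11 than in every unmarked HKII+/- library, as was Fos.

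Shifts in the marked libraries rose with GC content across the tested genes, though not for every member. Over all 13980 tested genes with a transcript sequence, the median shift in the library labelled HKII+/- replicate 11 was -2.15 log2 units in the decile of genes with the lowest transcript GC content (31% to 42%) and 1.29 in the decile with the highest (58.3% to 82.2%). In HKII+/+ replicate 13 the same medians were -1.71 and 0.97. Across genes the Pearson r between GC content and shift was 0.506 for replicate 11 and 0.509 for replicate 13 over the 33 members, and 0.642 for replicate 13 over all tested genes. Genes of 1 library share its preparation, so these r values are descriptions.

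Shifts were also described by exon number. Jun, Jund, Junb, Ier2, Ier5 and Rhob are the 6 members whose longest protein-coding transcript has 1 exon. Their median shift was 2.28 in replicate 11 and 1.97 in replicate 13, against -0.26 and 0.09 over the 27 members with more exons. Of the 7 members raised in both libraries 2 have several exons, Gadd45g, with the highest shift of any member in replicate 11 (4.05 and 2.54), and Maff (2.29 and 1.73). Over all tested genes the medians were 0.37 and 0.32 for 436 genes with 1 exon and -0.11 and -0.12 for 13544 with more. Among genes of the highest GC decile, 1-exon genes had a median of 1.52 in replicate 11 and 0.97 in replicate 13, and genes with more exons 1.28 and 0.97. Ier5, at a GC content of 52.3%, lay 2.97 and 2.70 log2 units up where the median of its GC decile was 0.07 and 0.06. Junb, a 1-exon gene at 62.6%, lay 0.64 and 0.53 up, where the median of its decile was 1.29 and 0.97. Egr1, at 57.3%, lay at -2.82 and -1.98, where the median of its decile was 0.89 and 0.69. Nr4a1, Ier3, Zfp36 and Klf4 also fell in replicate 11, in deciles whose median shift there was positive. Btg1, at 43.1%, lay at -1.15 and -1.72, where the median of its decile was -1.35 and -1.11. The part of GC content and exon number in these shifts was not tested.

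**Figure D4:**
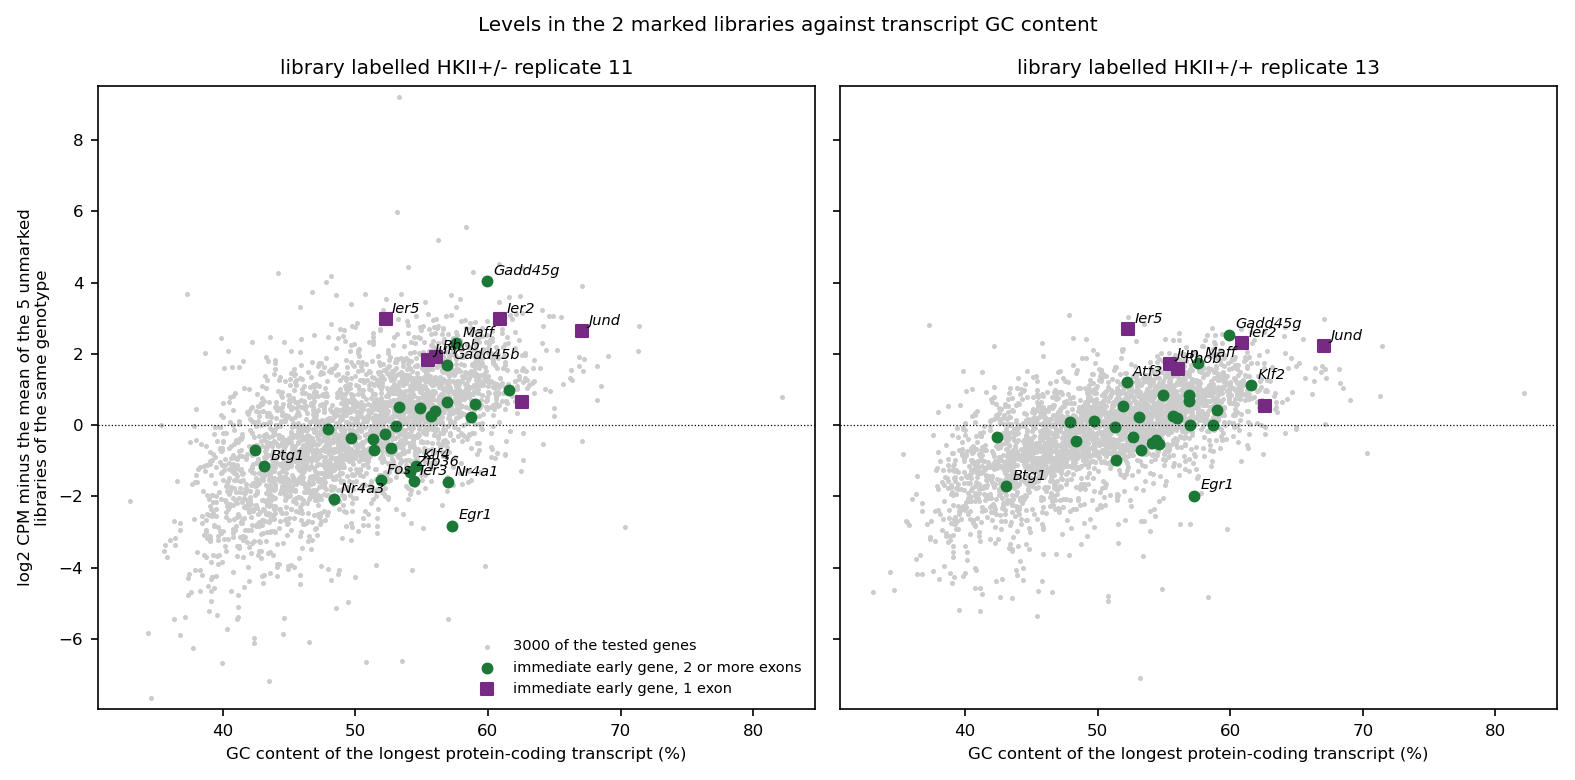
Log2 CPM in each marked library minus the mean of the 5 unmarked libraries of the same labelled genotype, against the GC content of the longest protein-coding transcript, for a sample of the tested genes (grey), members with 2 or more exons (green circles) and members with 1 exon (purple squares); members past 1 log2 unit are named. Grey points climb with GC content in both panels. Ier5 stands at 2.97 and 2.70, where the median of its GC decile is 0.07 and 0.06. Egr1 lies at -2.82 and -1.98, where the median of its decile is 0.89 and 0.69.

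Each genotype label holds 1 marked library, and for Jund, Ier5, Ier2 and Jun the direction with 12 libraries changed with which of them was in the fit. Values of Rhob, Maff and Gadd45g in these fits are not given here. Without the library labelled HKII+/- replicate 11 the log2 fold change was -0.50 for Jund, -0.56 for Ier5, -0.62 for Ier2 and -0.19 for Jun, each at an edgeR adjusted p of 0.938. Without HKII+/+ replicate 13 it was 1.12, 1.5, 1.2 and 0.80 for the same genes, each at an edgeR adjusted p of 0.888. The SE of the log2 fold change of Jund was 0.61 with 12 libraries and 0.06 with 10. With the GC trend of each library removed, a correction chosen after seeing the data, it was 0.15 with 12 libraries, and the log2 fold change was 0.12 (edgeR adjusted p = 1). For Ier5 the SE with this correction was 0.68, against 0.73 without it.

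Other genes of the response were described by list. Of all genes, 47.3% were higher in HKII+/- with 10 libraries and 49.5% with 12. Of 20 upstream kinases and factors, 0 passed in either comparison, and 13 were higher in HKII+/- with 10 libraries (median log2 fold change 0.025). Srf, which encodes serum response factor, averaged 181 ± 14.7 CPM in HKII+/- and 165 ± 9.36 CPM in HKII+/+ (SD, n = 5 each), at 0.14 (edgeR adjusted p = 1). The coactivators Crebbp and Ep300 were at 0.16 and 0.09. Of 48 tested further rapid response genes, 35 were higher with 10 libraries (median 0.08) and 0 passed. The 3 with the smallest unadjusted p were the phosphatase genes Dusp5, at a log2 fold change of 0.42, and Dusp8, at 0.19, and Phlda1, at 0.43, all at an edgeR adjusted p of 1. With 12 libraries Dusp8 and Phlda1 were at -0.02 and -0.03, the other direction.

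All 12 tested heat shock genes were higher in HKII+/- with 10 libraries (median 0.35), against 47.3% of all genes. With 12 libraries 9 were higher (median 0.27), against 49.5% of all genes. In edgeR 0 passed in either fit, and 4 with 10 libraries and 3 with 12 were higher at an unadjusted p below 0.05. The shares of all genes higher at that p were 1.51% with 10 libraries and 0.17% with 12. Hspa1b averaged 17.2 ± 23.6 CPM in HKII+/- and 3.8 ± 0.721 CPM in HKII+/+, at 2.20, and Hspa1a 18 ± 20.2 and 5.29 ± 1.62 CPM, at 1.80 (SD, n = 5 each, edgeR adjusted p = 1). For both genes the SD in HKII+/- exceeded the mean, so these 5 animals differed widely. These 2 are near-identical copies between which reads may be split. Dnajb1, their co-chaperone, was at 0.76. Hspa1a had r = 0.435 with Fos over the 10 libraries (rho 0.527, permutation p = 0.209 and 0.124, adjusted p = 0.907 for r), and 0.167 without HKII+/+ replicates 14 and 18. Of 12 genes that act on AU-rich mRNA decay, 8 were higher with 10 libraries (median 0.02) and 0 passed. Parn, a poly(A) nuclease, was at -0.17, Zfp36l1 at 0.12 and Khsrp at 0.05.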

How the data were processed

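The authors deposited whole-number counts per gene symbol, 1 table per library, with no normalisation. Per the labels' protocols, poly(A) libraries were sequenced as single-end reads of 100 nt. Per the submitters' processing notes, STAR 2.4.0 and featureCounts 1.4.4 were used with mm10 and GRCm38, 2 names of 1 assembly. No source used here gives the annotation release or strand setting, so reads of antisense partners cannot be told apart.

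Genotypes came from the sample titles. Each title names a separate heart sample, and p-values measure only the spread between these samples. The lowest chi-square per degree of freedom between libraries of 1 genotype was 7.034, so none agreed within sampling noise. No replicate number is used in both genotypes.

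edgeR 4.0.16 (R 4.3.3) ran glmQLFit and glmQLFTest with TMM factors, filterByExpr at a minimum count of 10 and Benjamini-Hochberg adjustment over all genes tested, and was tested on simulated data. CPM are counts per effective library size of the fit of 12. Intervals are 95%. Correlations used log2 CPM with a prior count of 1 and 100000 permutations of libraries (exact for fewer than 10), adjusted over all genes tested. DESeq2 1.42.0, limma 3.58.1 and other settings were alternatives. Positions, and the exon number and GC content of the longest protein-coding transcript, came from GENCODE vM21 (GRCm38), to which 22707 symbols matched directly and 933 through another symbol. Promoters came from RefSeq, GRCm38.p6.

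Members, lists and tests were chosen with earlier results of these data known. Library values were given for 15 listed members, members at an unadjusted p below 0.05 in either fit and the 3 with the largest spread, and for pathway lists the 3 genes with the smallest p. Other members named with values, among them Egr2, Gadd45g, Rhob and Maff, were singled out after their values were seen. Mitochondrially encoded genes were not analysed here.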

Additional observations from a re-analysis of the deposited data

Results flagged for a closer look

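In each genotype group of 6 libraries the highest or lowest CPM of a member was set against the gap to its neighbour. Of 66 such groups, 23 held a library far from the others. The rule was applied to untransformed CPM, and its chance rate of about 1 in 20 holds only for normally distributed values. Whether these CPM are so distributed was not tested. Members are not independent of one another, and 17 of the 23 fell in the marked libraries.

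In the library labelled HKII+/- replicate 11 the highest values stood far off for Jund (980 CPM), Rhob (878 CPM), Ier5 (474 CPM), Jun (360 CPM) and Gadd45g (196 CPM). The same held there for Dusp1 (164 CPM), Ier2 (156 CPM), Maff (65.1 CPM) and Gadd45b (16.8 CPM). In HKII+/+ replicate 13 they stood far off for Rhob (648 CPM), Jund (640 CPM), Ier5 (304 CPM) and Jun (276 CPM), and likewise for Ier2 (88.9 CPM), Gadd45g (60.4 CPM) and Maff (38.2 CPM), while Btg1 (6.56 CPM) was far below.

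In the unmarked HKII+/+ replicate 15 the highest values stood far off for Cyr61 (116 CPM), Egr1 (101 CPM) and Fos (41.3 CPM), and for Socs3 (11.1 CPM), Egr3 (7.22 CPM) and Egr2 (3 CPM).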

How the results depend on the processing

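No paired analysis was possible because the genotypes share no replicate number. Members called stayed at 0 under all 17 other scalings, filters, tools and left-out libraries with 12 libraries and all 15 with 10. With 12 libraries DESeq2 gave Ier2, Ier5 and Jund no adjusted p, so it could not have called them. Over all genes, limma voom with quality weights called 2 genes with 12 libraries (Hk2 and Kbtbd12), DESeq2 called 3 with 10, and leaving out 1 of the 10 gave 0 to 2. With voom weights the log2 fold change of Egr1 was 0.167 with 12 libraries and 0.166 with 10, that of Cyr61 0.0239 and 0.0301, and that of Myc -0.0748 with 12, each of the other sign. That setting moved 11 of the 17 members given library by library by over 1.5 times with 12 libraries and 7 with 10, sign turns included, with Fos at 1.03 and 1.02 against 0.399 and 0.524, and Nr4a1 at 0.872 and 0.876 against 0.351 and 0.454. The median r with Fos was 0.328 with all 12 libraries, 0.326 without HKII+/+ replicates 14 and 18, and 0.42 to 0.576 with 1 library left out, where 0 to 1 members passed.

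Leaving out 1 of 12 libraries turned the sign of 10 of the members given library by library. Their log2 fold changes ran from -0.192 to 0.799 for Jun, -0.153 to 0.201 for Junb, -0.499 to 1.12 for Jund, -0.364 to 0.734 for Egr1, -0.0467 to 0.222 for Myc, -0.0919 to 0.165 for Zfp36, -0.624 to 1.2 for Ier2, -0.557 to 1.5 for Ier5, -0.162 to 0.139 for Cyr61 and -0.481 to 0.115 for Gadd45b. With 1 of the 10 unmarked libraries left out they ran from -0.218 to 0.249 for Junb, -0.382 to 0.739 for Egr1, -0.287 to 0.0245 for Myc, -0.0613 to 0.198 for Zfp36, -0.0137 to 0.302 for Ier2 and -0.149 to 0.197 for Cyr61. The cause was not tested. Removing the GC trend, chosen after seeing the data, gave a member median of 0.103 with 12 libraries and 26 higher. Low counts limit Fosl1, and the spread between animals limits Fos, Nr4a1, Fosb and Egr1.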
